A study of Mus musculus with 4 samples.

Results

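The AMPA and kainate receptor subunits are 9 genes, Gria1 to Gria4 and Grik1 to Grik5, chosen by name from the 22609 gene symbols counted in each library. All 9 passed the filter on low counts that left 14527 genes for testing. Hippocampal RNA was sequenced in 4 libraries, 2 labelled FLOX+GCI, called control here, and 2 labelled FBN-ARO-KO+GCI, called knockout, and values are given as replicate 1, then replicate 2. In the knockout, Cre under the CaMKIIα promoter removes the aromatase gene Cyp19a1 from excitatory neurons of the forebrain, and the control carries the floxed gene undeleted. All mice were female, 3 to 5 months old, ovariectomized 1 week earlier, and underwent global cerebral ischemia (GCI), a clip on both common carotid arteries for 20 min, with RNA taken after 24 h of reperfusion. There was no sham group, so every comparison is between genotypes after ischemia. The sources used here do not say whether libraries of the same genotype came from different mice, and p-values then measure only the spread between these libraries.

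AMPA receptors are tetramers of GluA1 to GluA4, encoded by Gria1 to Gria4, and carry most of the fast excitatory current of the hippocampus. Kainate receptors are tetramers of GluK1 to GluK5, encoded by Grik1 to Grik5, of which GluK1 to GluK3 can form channels alone while GluK4 and GluK5 need one of those partners. GluA2 is the subunit that makes AMPA receptors nearly impermeable to calcium, because its transcript is edited at a glutamine codon in the pore loop, the Q/R site. The ratio of Gria2 to Gria1 is therefore followed in ischemia, where a fall of GluA2 in CA1 pyramidal neurons is known to precede their death.

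The coding sequence around that codon is shown because it holds the edited site of Gria2. The same stretch also shows how far the subunits differ in base composition. Each line gives 60 bases of the sense strand from the GENCODE M1 transcript of mouse build mm9, 5′ to 3′, within a single exon, with the Q/R codon in capitals.
Gria1, chr11:57056542-57056601, plus strand, exon 11: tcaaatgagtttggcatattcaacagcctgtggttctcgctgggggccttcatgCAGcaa
Gria2, chr3:80510830-80510889, minus strand, exon 11: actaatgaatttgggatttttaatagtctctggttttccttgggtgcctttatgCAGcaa
Gria4, chr9:4464134-4464193, minus strand, exon 12: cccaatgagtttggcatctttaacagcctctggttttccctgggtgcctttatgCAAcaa
Grik2, chr10:48964132-48964191, minus strand, exon 13: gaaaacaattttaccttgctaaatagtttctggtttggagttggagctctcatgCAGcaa
Grik5, chr7:25807513-25807572, minus strand, exon 15: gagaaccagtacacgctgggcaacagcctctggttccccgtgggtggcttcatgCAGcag
The site was located as the first residue of a glutamine pair that all 9 subunits share, so glutamine in all 9 genes follows from that rule. The genome encodes it by CAG in 8 of them and by CAA in Gria4. Over the 60 bases, 46 in Gria1 and 37 in Grik5 were the same as in Gria2. The GC content of the stretch was 36.7% in Gria2, 50.0% in Gria1 and 61.7% in Grik5. Counts per gene do not tell edited from unedited transcripts, so editing itself was not measured.

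Reads on genes totaled between 24333396 and 33076795 per library, and the floor of 3 counts lay between 0.0905 and 0.122 CPM (counts scaled to the total reads on genes, with TMM factors), which covers counting error only. Every subunit was far above this floor, with between 390 and 49156 counts. Cyp19a1 itself had 4 and 1 counts in the control and 2 and 2 in the knockout, too few to check the genotype. The hippocampal marker genes fixed for CA1, CA3 and dentate granule cells were present in each library, and none of the 42 markers of 11 cell types was at 0 in any library. Whether counting used the strand is not given in the sources used here. No subunit shared exon bases with a gene on the opposite strand, while Gria2, Gria3 and Gria4 each held an annotated microRNA of the same strand within 29, 91 and 16 exon bases.

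By reads per kilobase, Gria1 was the most abundant subunit and Grik1 the least. Per kilobase of exon, Gria1 stood at 231 ± 10.6 RPKM (CPM per kilobase, SD, n = 2) in the control and 253 ± 11.1 (SD, n = 2) in the knockout. Gria2 followed at 112 ± 2.03 and 150.5 ± 21.6 RPKM (SD, n = 2 each). Next was the kainate subunit Grik5, at 71.0 ± 1.08 and 57.4 ± 1.57 RPKM (SD, n = 2 each), above Gria3 at 25.6 ± 0.531 and 29.9 ± 2.57 RPKM (SD, n = 2 each). The libraries of these 4 genes did not overlap with those of the next gene in the order. Below them, Gria4 and Grik4, with means of 10.7 and 10.4 RPKM in the control, overlapped with each other, as did Grik3 and Grik2 at 8.26 and 7.80 RPKM. Grik1 was lowest at 4.86 ± 0.157 RPKM (SD, n = 2) in the control. With the longest transcript as the length in place of all exons, Grik2 moved up to 13.4 RPKM in the control, above Gria4 at 12.4. The means of the first 4 genes kept their order. Grik5 and Gria3 were then close in the knockout, at means of 57.4 and 56.6 RPKM.

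Of the AMPA subunits, all 4 were higher in both knockout libraries than in either control library. The difference was greatest for Gria2, at 1.34-fold, and the mean ratio of the others lay between 1.10 and 1.17. None reached an adjusted p under 0.05 in edgeR's quasi-likelihood test. The background was high, since 25.9% of all tested genes were higher in both knockout libraries. In either direction, the libraries of the genotypes did not overlap for 51.8% of all tested genes.

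Gria2, on chromosome 3 of mm9 from 80488858 to 80606713, encodes GluA2. It had 791 and 771 CPM in the control, and 941 and 1153 CPM in the knockout. The control libraries lay close together, while the knockout libraries differed from each other by more than the lower of them differed from the control. The log2 fold change was 0.42 (standard error, SE, 0.10, adjusted p = 0.238, quasi-likelihood test of edgeR, adjusted by Benjamini-Hochberg over all tested genes). It was 0.27 without knockout replicate 2 and 0.56 without knockout replicate 1. With edgeR's likelihood ratio test and with DESeq2, Gria2 did pass, with adjusted p-values of 0.0245 and 0.00366.

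Gria1, on chromosome 11 from 56824889 to 57143746, encodes GluA1, the partner of GluA2 in most CA1 receptors and the subunit brought to synapses by activity. Its libraries stood at 1441 and 1351 CPM in the control and at 1483 and 1578 CPM in the knockout. The groups were apart by less than the gap inside either of them, and the log2 fold change between genotypes was 0.13 (SE 0.07, adjusted p = 0.380, same edgeR test). Gria3, on chromosome X from 38754031 to 39031778, encodes GluA3, which pairs with GluA2. It had 249 and 256 CPM in the control and 277 and 313 CPM in the knockout, a log2 fold change of 0.22 (SE 0.08, adjusted p = 0.256, same edgeR test). Gria4, on chromosome 9 from 4417899 to 4796234, encodes GluA4, which in the adult hippocampus is found mainly in interneurons. Gria4 had 65.3 and 69.4 CPM against 70.7 and 82.3 CPM, with a log2 fold change of 0.18 (SE 0.10, adjusted p = 0.369, same edgeR test), and control replicate 2 nearly met knockout replicate 1.

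**Figure D1:**
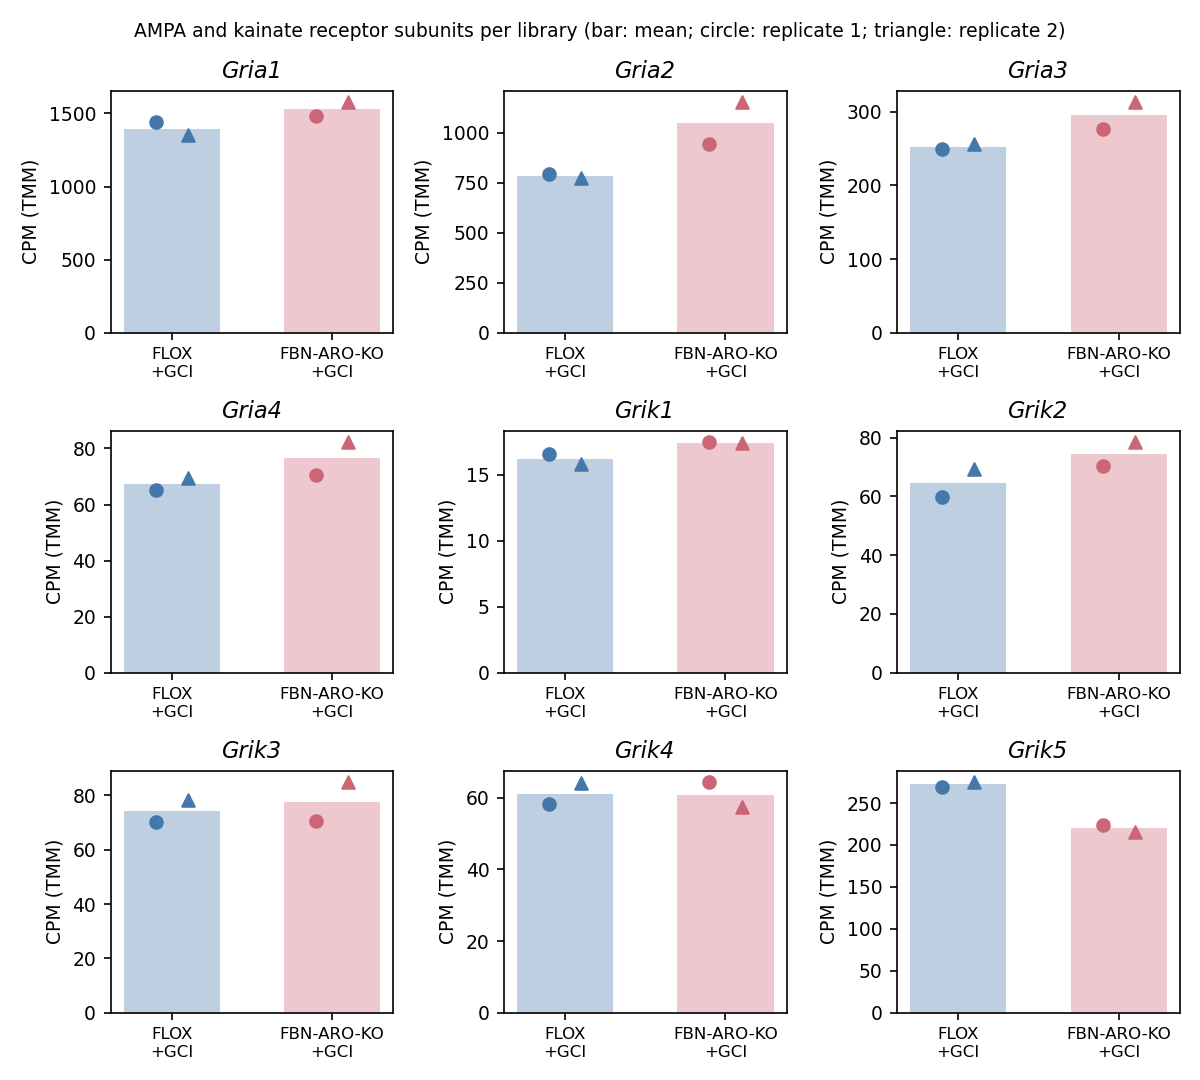
CPM (y axis, from 0) of each subunit in the 4 libraries, with bars for the mean of each genotype, circles for replicate 1 and triangles for replicate 2. Gria2 stands apart between genotypes (771 to 791 against 941 to 1153 CPM) and Grik5 in the opposite direction (269.5 to 275 against 216 to 224 CPM), while Grik3 and Grik4 overlap.

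The kainate subunits did not differ in a common direction. Grik5 was lower in the knockout, Grik1 and Grik2 were higher in both knockout libraries, and Grik3 and Grik4 overlapped between genotypes. Of all tested genes, 25.9% were higher and 25.8% lower in both knockout libraries. No kainate subunit reached an adjusted p under 0.05 in the quasi-likelihood test.

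Grik5, on chromosome 7 from 25794872 to 25857388, encodes GluK5, a high-affinity subunit that joins GluK2 in most hippocampal kainate receptors. It had 269.5 and 275 CPM in the control and 224 and 216 CPM in the knockout. Both genotypes were tight, and the gap between them was many times the gap within either. The log2 fold change of Grik5 was -0.31 (SE 0.07, adjusted p = 0.238, same edgeR test), and with 1 library left out in turn it stayed between -0.34 and -0.28. It passed with the likelihood ratio test (adjusted p = 0.0281) and with DESeq2 (adjusted p = 0.0170).

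Grik4, on chromosome 9 from 42326218 to 42752576, encodes GluK4, the other high-affinity subunit, known for its strong expression in CA3. Its libraries had 58.3 and 64.1 CPM in the control and 64.4 and 57.3 CPM in the knockout, so that the lowest and the highest value both belonged to the knockout (log2 fold change -0.01, SE 0.09, adjusted p = 0.970, same edgeR test). The difference had no stable sign when libraries were left out, from -0.10 to 0.07. Grik2, on chromosome 10 from 48819266 to 49508572, encodes GluK2, the main channel-forming kainate subunit of pyramidal and granule cells. It had 59.7 and 69.3 CPM against 70.2 and 78.5 CPM, a log2 fold change of 0.20 (SE 0.10, adjusted p = 0.352, same edgeR test).

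Grik1, on chromosome 16 from 87896441 to 88289947, encodes GluK1, which in the hippocampus is known mainly from interneurons. It had 16.6 and 15.8 CPM in the control and 17.5 and 17.4 CPM in the knockout, a log2 fold change of 0.11 (SE 0.11, adjusted p = 0.634, same edgeR test). Its difference was about as large as its error. Grik3, on chromosome 4 from 125167944 to 125391417, encodes GluK3 and is known from the dentate gyrus. It had 70.2 and 78.2 CPM against 70.4 and 84.9 CPM, with a log2 fold change of 0.06 (SE 0.11, adjusted p = 0.784, same edgeR test). For Grik3 the spread within each genotype was wider than the distance between them.

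Over the 9 subunits, 7 had a positive and 2 a negative log2 fold change, and the median was 0.13 against -0.01 over all tested genes. With the quasi-likelihood test 0 of the 9 had an adjusted p under 0.05, where 0.0138% of all tested genes did. At an unadjusted p under 0.05 there were 3, Gria2, Gria3 and Grik5, where 16.5% of all tested genes were that low. The likelihood ratio test and DESeq2 each called the same 2 of the 9, Gria2 and Grik5, where the first called 2.02% and the second 4.92% of the genes to which they gave an adjusted p. DESeq2 gave none to Grik1. The groups did not overlap for 7 of the 9 subunits, 6 higher and 1 lower in the knockout, where 25.9% of all tested genes were apart in the first direction and 25.8% in the second.

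**Figure D2:**
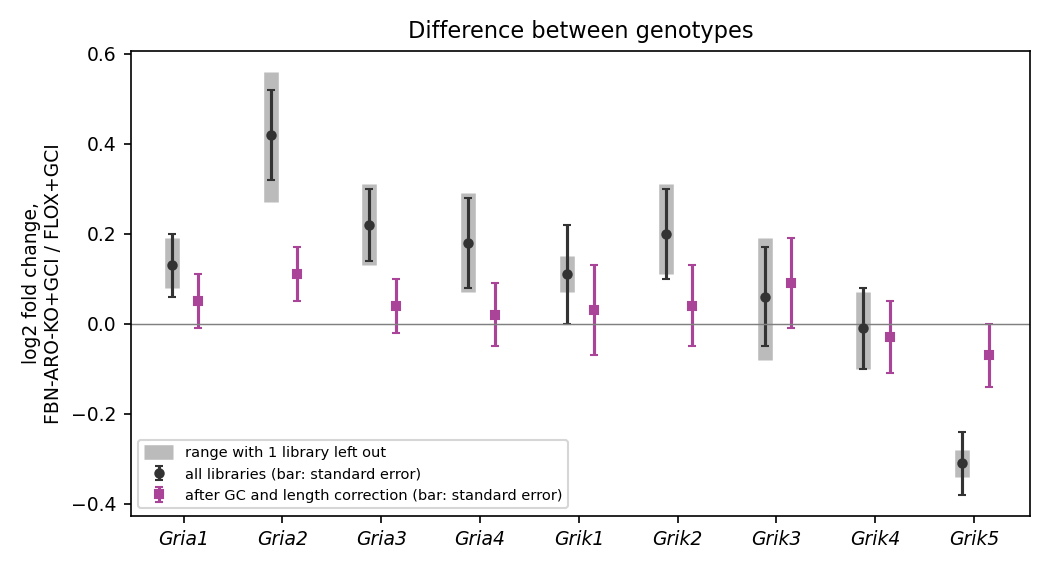
Log2 fold change of each subunit (y axis, knockout over control), as fitted on all libraries (black, with standard error), over fits that leave out 1 library (gray range) and GC-corrected (purple squares, with standard error). Gria2 goes from 0.42 to 0.11 and Grik5 from -0.31 to -0.07 with the correction.

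The Gria2 to Gria1 ratio was higher in both knockout libraries. As counts, it was 0.549 and 0.571 in the control and 0.634 and 0.731 in the knockout. Scaled per kilobase of exon, the ratio was 0.477, 0.496, 0.551 and 0.635 in the same order, with means of 0.486 ± 0.0135 and 0.593 ± 0.0591 (SD, n = 2 each). Gria1 thus had more reads per kilobase than Gria2 in each library, and the ratio does not depend on how libraries are scaled. The ratio was 1.22-fold higher in the knockout, with a two-sided exact permutation p of 0.333 on the log2 scale, the smallest that 2 against 2 libraries allow. With library trends over transcript GC content and length removed (GC-corrected values), the per-kilobase ratio was 0.497 and 0.556 in the control and 0.552 and 0.543 in the knockout, so the genotypes overlapped (exact permutation p = 1.00). The correction removes only what differs between libraries, so a GC effect shared by all libraries would remain in the ratio.

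As shares of the AMPA family per kilobase, Gria2 made up 29.3% and 29.8% in the control and 32.2% and 35.1% in the knockout. Gria1 took 61.5% and 60.2% against 58.4% and 55.4%. The difference was 4.08 percentage points for Gria2 and -3.94 for Gria1, while Gria3 and Gria4 held smaller shares that shifted by -0.04 and -0.10 points. Summed over the family, the AMPA subunits had 388 and 371 RPKM in the control and 420.0 and 472 RPKM in the knockout. In the kainate family, Grik5 held 70.2% and 68.7% in the control and 64.3% and 62.5% in the knockout, a difference of -6.06 points. The shares of the other kainate subunits were all higher, by 2.31 points for Grik2, 1.48 for Grik3, 1.24 for Grik4 and 1.03 for Grik1. Shares within a family add up to the whole, so a lower share of Grik5 raises the others together. In CPM, Grik3 and Grik4 overlapped between genotypes, and Gria1 was higher in the knockout although its share was lower. The summed kainate subunits had 100.1 and 104 RPKM against 91.0 and 90.1 RPKM, lower in the knockout where the AMPA sum was higher. For 7 of the 9 shares, which depend on each other within a family, the genotypes did not overlap. This gave the smallest exact permutation p that the design allows, 0.333 (0.428 adjusted over the 9 shares). With the correction, the difference was 0.92 points for Gria2 and -1.53 points for Grik5. The family sums were taken before the correction. With it, the largest member of each family overlapped between genotypes. Gria1 had 1476 and 1394 CPM in the control and 1467 and 1509.6 CPM in the knockout. Grik5 then had 242 and 260.0 CPM against 231 and 248 CPM.

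**Figure D3:**
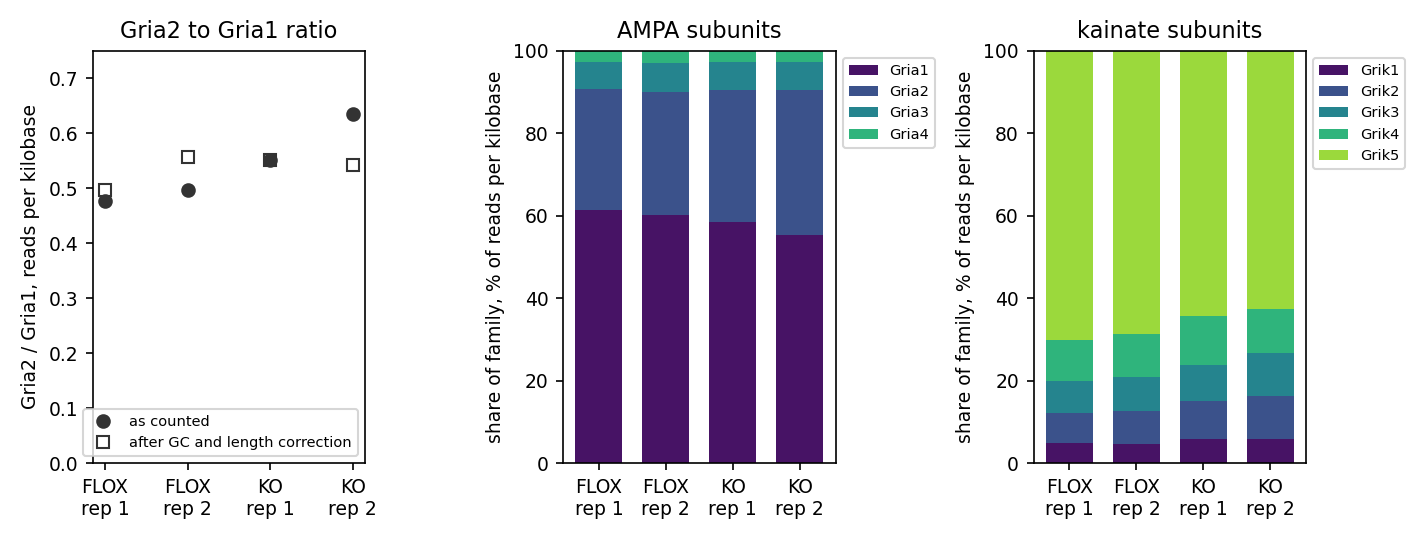
Left, Gria2 to Gria1 ratio per kilobase of exon in each library, as counted (filled circles) and GC-corrected (open squares). Middle and right, share of each subunit in the AMPA and kainate families (percent of reads per kilobase). KO stands for the knockout and FLOX for the control. As counted, the ratio runs from 0.477 to 0.635, and after the correction from 0.497 to 0.556.

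The GC content of the transcript moved with these differences. Among the longest coding transcripts it was lowest in Gria2 (38.1%), followed by Gria3 (43.0%), Grik2 (43.8%), Gria4 (44.4%), Grik1 (46.4%), Gria1 (48.5%), Grik4 (52.2%), Grik3 (54.2%) and Grik5 (62.3%). The log2 difference between genotypes ran almost in that order, from 0.42 in Gria2 to -0.31 in Grik5. Across the 9 subunits Spearman's rho was -0.97, and across 13885 tested genes with a coding transcript it was -0.55. These are descriptions, since all genes share the same 4 libraries. A slope of the same sign was present inside the knockout genotype. For replicate 2 against replicate 1 of the knockout, rho was -0.55 over the subunits and -0.48 over all of these genes, and Gria2 differed by 0.29 on the log2 scale between these libraries. Within the control rho was 0.07 over the subunits and 0.10 over all of these genes.

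Trends of each library over GC content and transcript length were then fitted and removed. Spearman's rho with GC content was afterwards 0.02 over the 13885 genes but still -0.45 over the 9 subunits. The GC-corrected log2 fold change was 0.11 for Gria2 (SE 0.06, adjusted p = 0.544, same edgeR test) and -0.07 for Grik5 (SE 0.07, adjusted p = 0.746). The trend fitted for these genes was 0.30 for Gria2 and -0.24 for Grik5. The other 7 subunits then lay between -0.03 and 0.09, the median over the 9 was 0.04, and 0 of the 9 had an unadjusted p under 0.05, where 10.2% of all tested genes did. Gria2 was the only subunit whose libraries still did not overlap between genotypes, at 844 and 891 CPM against 932 and 944 CPM, where 42.9% of all tested genes did not overlap. A difference of genotype that follows GC content cannot be told apart from a difference between libraries in these 4 samples.

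**Figure D4:**
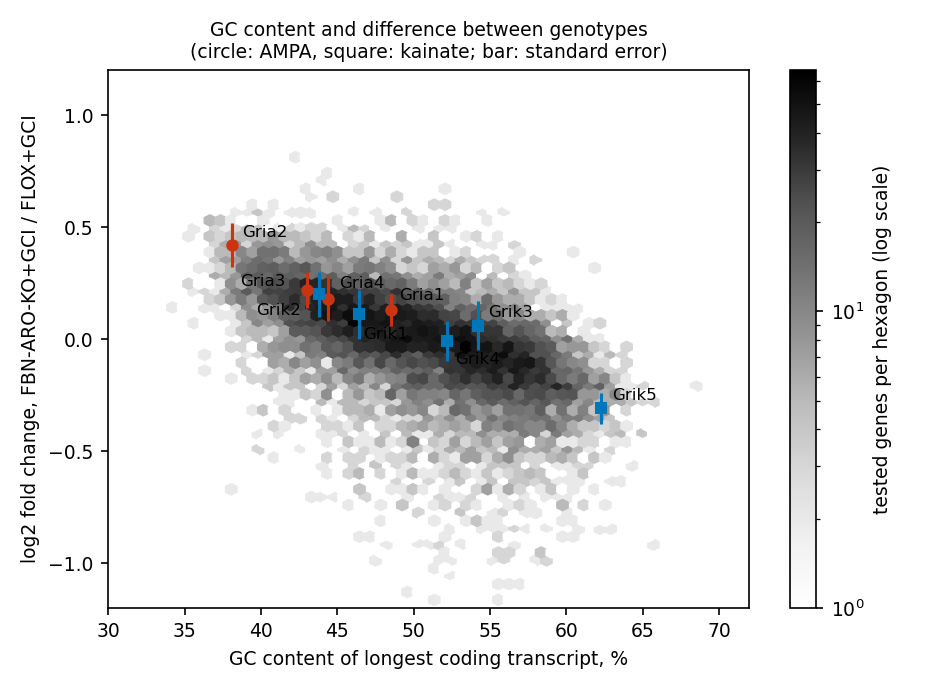
Log2 fold change between genotypes (y axis) against the GC content of the longest coding transcript in percent (x axis), for the tested genes with a coding transcript that lie within the axes as a gray density on a log scale, AMPA subunits as red circles and kainate subunits as blue squares with their standard errors. The subunits lie along the slope of the whole transcriptome, from Gria2 at 38.1% and 0.42 to Grik5 at 62.3% and -0.31.

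The genes with a pattern most like Gria2 over the 4 libraries, by the root mean square difference of centred log2 CPM among 11849 genes with a mean of at least 100 counts, were Psip1, Zfp871, Tmem106b, Rngtt and Papd5. Psip1, which encodes a chromatin-binding protein, had 129, 124, 152 and 187 CPM in the order used above and differed from Gria2 by 0.0055. Tmem106b, which encodes a lysosomal membrane protein, had 225, 215, 263 and 321 CPM. The log2 fold changes of these 5 genes were between 0.40 and 0.44, close to that of Gria2 because of how they were chosen. The GC content of their transcripts was between 38.5% and 45.5%, below the median of 50.6% over tested genes.

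Of the 42 cell type markers, 4 were higher and 7 lower in the knockout at an unadjusted p under 0.05, where 16.5% of all tested genes were that low, and none had an adjusted p under 0.05 in the quasi-likelihood test. After the correction there were 6, where 10.2% of all tested genes were that low. The excitatory neuron genes (Slc17a7, Camk2a, Neurod6, Neurod2) summed to between 7073 and 7382 CPM in the control and between 7217 and 7253 CPM in the knockout, with 0 of 4 at that p. Camk2a weighed most in this sum, with means of 5003 CPM in the control and 5158 CPM in the knockout. Camk2a and Neurod6 were higher, and Slc17a7 and Neurod2 lower, in both knockout libraries, where 25.9% and 25.8% of all tested genes were. After the correction only Camk2a did not overlap. The general neuronal genes Rbfox3, Snap25, Syt1 and Map2 summed to between 5055 and 5489.7 CPM in the control. In the knockout their sum lay between 5558 and 6389 CPM, with Snap25 higher and Rbfox3 lower at that p. After the correction 0 of the 4 were, with log2 fold changes of 0.08 for Snap25 and 0.00 for Rbfox3. Interneuron markers summed to between 939 and 998 against between 908 and 915 CPM. Of these 6 markers 2 were at that p, both lower, Slc32a1 (log2 fold change -0.33) and Sst (-0.38). Sst passed with DESeq2 (adjusted p = 0.0175) and the likelihood ratio test (adjusted p = 0.0404), and after the correction 0 of the 6 were at an unadjusted p under 0.05. The CA1 markers summed to between 475 and 485 against between 455 and 469 CPM, with 1 of 4 at that p, Wfs1. It was lower (log2 fold change -0.16, and -0.03 after the correction). After the correction 1 of these 4 was at that p, Fibcd1, which was higher (0.19). The sums of the CA3 and dentate markers overlapped between genotypes, while single markers differed in opposite directions. In dentate, Dsp was higher (log2 fold change 0.42, and 0.39 after the correction). Dsp passed with DESeq2 (adjusted p = 0.0360) and the likelihood ratio test (adjusted p = 0.0479). C1ql2 was lower (-0.45, and -0.14 after the correction, when its libraries overlapped between genotypes). Prox1 was higher in both knockout libraries (0.19, and 0.18 after the correction). After the correction 2 of the 3 dentate markers, Dsp and Prox1, were at an unadjusted p under 0.05 in the quasi-likelihood test, both higher. In CA3, Cpne4 was higher (0.23, and 0.13 after the correction) and Bok lower (-0.19). The direction of Bok was reversed after the correction (0.08). The astrocyte sum overlapped between genotypes, over a control range of 1582 to 1998 CPM in which Gfap alone had 396 and 900.3 CPM. Aldh1l1 was lower in the knockout (-0.30, and -0.24 after the correction). The other astrocyte markers overlapped between genotypes, with Gja1 at 0.13, Slc1a3 at 0.13, Aqp4 at 0.06 and Gfap at -0.29. The median of the astrocyte list was 0.06, and -0.17 after the correction. Oligodendrocyte markers summed to between 3463 and 3967 CPM in the control and between 4017 and 4123 CPM in the knockout, with Mobp higher (0.29). Microglia and endothelial sums overlapped, and those of the oligodendrocyte precursor markers lay between 95.9 and 99.5 against between 90.3 and 91.8 CPM, each of these lists with 0 at that p. These marker genes were named after their values were seen. In whole hippocampus, fewer cells of a type and less RNA per cell cannot be told apart, and the part of these markers in the subunit values was not tested.

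AMPA receptors reach the synapse with auxiliary subunits, among them the TARPs (Cacng genes), cornichons (Cnih2, Cnih3) and Shisa proteins, which slow channel closing and hold the receptor at the postsynaptic density. All 15 listed auxiliary genes were tested. None had an unadjusted p under 0.05 with the quasi-likelihood test, where 16.5% of all tested genes did. Of the 15, 4 had a positive and 11 a negative log2 fold change, and the median was -0.11. Cacng8, the TARP γ-8 gene that is typical of hippocampus, had 67.5 and 67.7 CPM in the control and 63.7 and 62.1 CPM in the knockout, a log2 fold change of -0.10 (SE 0.08). Cnih2 was at -0.14 (SE 0.09) and Cacng2, for stargazin, at 0.07 (SE 0.13). The auxiliary genes were GC-rich, with a median of 56.5%. After the correction, Cacng8 was at 0.15 and Cnih2 at 0.13, the opposite direction, and the median of the list was 0.04. At an unadjusted p under 0.05 there were then 2 auxiliary genes, Shisa7 and Shisa9, both higher in the knockout and named after their values were seen, where 10.2% of all tested genes were that low.

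The kainate receptor auxiliary genes Neto1 and Neto2, which encode transmembrane proteins that slow kainate receptor currents, were both higher in the knockout. Neto2 had 48.1 and 43.7 CPM in the control and 57.5 and 73.6 CPM in the knockout, a log2 fold change of 0.51 (SE 0.13, adjusted p = 0.238, quasi-likelihood fit of edgeR). Like Gria2, it passed with the likelihood ratio test (adjusted p = 0.0250) and with DESeq2 (adjusted p = 0.0164), and its transcript is low in GC, at 36.8%. After the correction its log2 fold change was 0.18 (SE 0.07, adjusted p = 0.434, same edgeR test). Neto1 had 124 and 128 CPM against 137 and 154 CPM, a log2 fold change of 0.21 (SE 0.08, adjusted p = 0.274, same edgeR test), and 0.15 after the correction. These were the only 2 of the 41 partner genes with an unadjusted p under 0.05 in the quasi-likelihood test, where 16.5% of all tested genes were that low.

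Among the 15 genes for trafficking and anchoring, 6 were positive and 9 negative, with a median of -0.04. None was at an unadjusted p under 0.05, where 16.5% of all tested genes were that low. After the correction the median was -0.07 and 1 of the 15 was at that p, where 10.2% of all tested genes were. This was Nptx1, which encodes a neuronal pentraxin that gathers AMPA receptors at synapses (log2 fold change 0.23, SE 0.07). It was also named after its value was seen. Of the RNA editing enzymes, Adarb1, which encodes ADAR2, the enzyme that edits the Q/R site of Gria2, had 235 and 251 CPM in the control and 257 and 259 CPM in the knockout (log2 fold change 0.08, SE 0.07, adjusted p = 0.550, same edgeR test, and 0.08 after the correction). Rest, the repressor known to silence Gria2 in CA1 after ischemia, was low, at 2.63 and 3.37 CPM against 3.23 and 3.62 CPM, and overlapped between genotypes. Its log2 fold change was 0.19 (SE 0.23), an error larger than the difference. None of the 6 genes of the REST complex had an unadjusted p under 0.05, where 16.5% of all tested genes did.

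**Figure D5:**
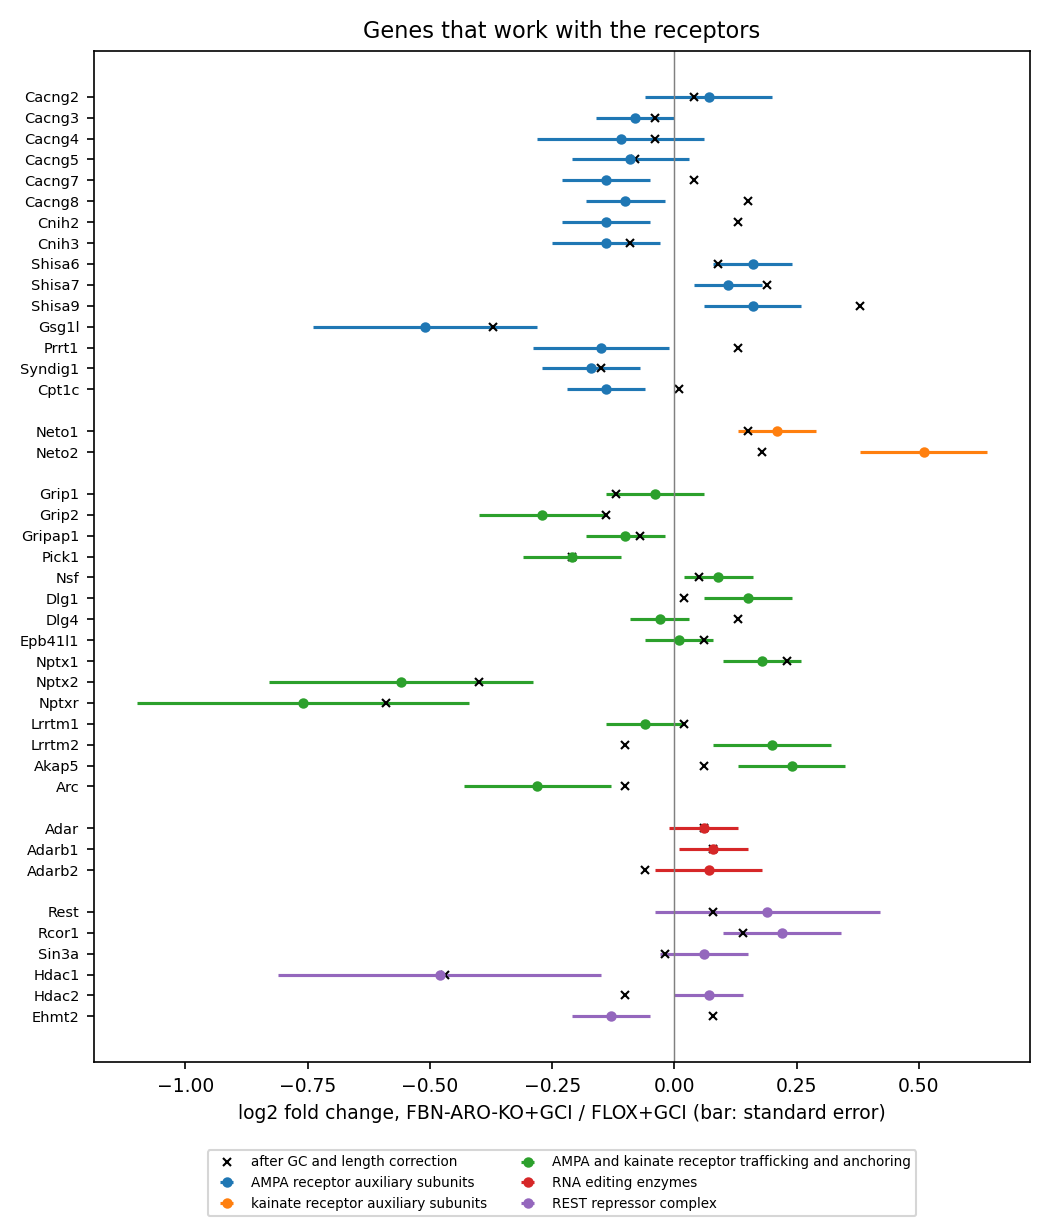
Log2 fold change between genotypes (x axis) of the 41 partner genes, one per row and colored by list, with standard errors, and the GC-corrected value as a cross. Neto2 lies farthest to the right at 0.51 and moves to 0.18, while Cacng8 and Cnih2 move from below 0 to above it.

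For comparison, of the 7 NMDA receptor subunit genes, the slower class of glutamate-gated channels, 6 passed the filter on low counts. Their median log2 fold change was -0.04, with values between -0.29 and 0.11. At an unadjusted p under 0.05 there were 0, where 16.5% of all tested genes were that low. Their median GC content was 55.5%, against 43.7% for the AMPA and 52.2% for the kainate subunits. After the correction the NMDA subunits lay between -0.03 and 0.08. Whether the AMPA and NMDA subunits differ from each other was not tested.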

How the data were processed

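RNA-Seq of hippocampus was carried out on 2 FLOX+GCI and 2 FBN-ARO-KO+GCI libraries. Reads of 50 nt were aligned by the authors to mm9 using TopHat2 2.0.8b (version from the submitters' processing notes), and the authors deposited unnormalized HTSeq counts for each gene symbol. The annotation release and strand setting are not given in the sources used here. The 5 counters of reads given to no gene were left out.

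The main comparison of genotypes used edgeR 4.0.16 (quasi-likelihood test, R 4.3.3) after TMM normalization and filterByExpr (minimum count 10), with Benjamini-Hochberg adjustment over all tested genes. The standard error was approximated from the F statistic. CPM were scaled by TMM, and RPKM divide them by the union of exons in GENCODE M1 (NCBIM37, the mm9 build). Ratios and shares were compared with two-sided exact permutation tests. The GC and length correction models the deviation of log2 CPM (prior count 2) from the gene mean in each library by natural splines (5 degrees of freedom) and enters edgeR as an offset. Of the 22609 symbols, 20099 had a coding transcript for it. DESeq2 1.42.0, the likelihood ratio test, other scaling and filters, a block for replicate numbers and leaving out libraries singly were the alternatives. The procedure was tested on simulated counts.

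The 9 subunits, the gene lists and the alternatives were chosen with earlier results of these data known. Named genes were the 9 subunits, Cacng2, Cacng8, Cnih2, Neto1, Neto2, Adarb1 and Rest, up to 3 genes per list and direction with an unadjusted p under 0.05 and groups that do not overlap, and the 5 genes nearest to Gria2. Syndig1, Epb41l1 and Map2 were counted under their older symbols. Another list is not reported here.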

Additional observations from a re-analysis of the deposited data

How the results depend on the processing

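The number of genes called over the whole table depended on the test. It was 2 with the quasi-likelihood test, 5 with every gene of at least 1 count, 294 with the likelihood ratio test, 285 with DESeq2, and between 0 and 202 with 1 library left out, where 0 came without either FBN-ARO-KO+GCI library, 202 without FLOX+GCI replicate 1 and 72 without FLOX+GCI replicate 2. Leaving out a library leaves 1 library in its group, which is assumed to vary like the other group. Of the 9 subunits, 2 passed with the likelihood ratio test and 2 with DESeq2, and 0 passed with any library left out. At an unadjusted p under 0.05 there were 0 after the correction for base composition, alone or with the block, and between 2 and 5 with 1 library left out (5 without FBN-ARO-KO+GCI replicate 1), against 3. The median log2 fold change of the subunits moved from 0.13 to 0.04 with the correction, alone or with the block, and was between 0.09 and 0.19 with 1 library left out. The log2 ratio of Gria2 to Gria1 differed by 0.28 between genotypes, by 0.06 after the correction and by between 0.18 and 0.38 with 1 library left out. Of the 41 partner genes, 2 had an unadjusted p under 0.05, against 5 with every gene of at least 1 count, 6 with the likelihood ratio test, 6 with DESeq2, 4 after the correction and between 2 and 11 with 1 library left out (7 without FLOX+GCI replicate 1, 5 without FLOX+GCI replicate 2, 11 without FBN-ARO-KO+GCI replicate 1). The sign changed for Grik3 (0.00 without FLOX+GCI replicate 1 and -0.08 without FBN-ARO-KO+GCI replicate 2) and for Grik4 (between -0.10 and 0.07, with 0.06 without FLOX+GCI replicate 2 and 0.07 without FBN-ARO-KO+GCI replicate 2), neither of which had a called difference. Over all alternatives, single subunits kept direction and side of the threshold in 108 fits, passed it in 5 and changed sign in 4. The cause of these shifts was not tested.

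Replicate numbers are shared by the groups, but nothing says that they mark a shared mouse or day, and the deviations of same-numbered libraries correlated at 0.129 across genes. Fitting that number as a block called 184 genes (1.27% of those tested) and 1 of the 9 subunits, Gria2 (log2 fold change 0.41, adjusted p = 0.0420 from edgeR), but not Grik5 (adjusted p = 0.106). With the block, 7 partner genes had an unadjusted p under 0.05. With the block and the correction together, 38 genes, 0 subunits and 6 partner genes passed the same thresholds, and the adjusted p of Gria2 was 0.569. The block left the log2 ratio of Gria2 to Gria1 at 0.28.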
